A study of Mus musculus with 4 samples.

Results

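The transforming growth factor beta (TGF-beta) and myostatin pathway was examined in quadriceps muscle through 10 named genes, picked by symbol for their role in the pathway, at a time when earlier results of these data were known. They are the ligand genes Tgfb1, Tgfb2, Tgfb3 and Mstn, the ligand trap Fst, the receptor Acvr2b and the signal transducers Smad2, Smad3, Smad4 and Smad7. Of these, 9 were measured, each by 1 probe set whose identifier is built on the Entrez gene number, out of 15267 named genes in the table. Mstn, the myostatin gene, was not analysed here.

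Each quadriceps was read on its own Affymetrix array. The mdm mutant group consisted of 2 mice with a mutation in titin, the giant spring protein of the sarcomere, and the wild type group of 2 mice without it. All 4 animals carry the same strain label, B6C3Fe a/a-Ttnmdm/J. In the sample titles Ttn+ marks the mice with the mutation and Ttn- those without it, as both the genotype labels and the descriptions of the samples say. The labels do not state zygosity, age or sex. The array reads whole muscle, so fewer cells of a type and less RNA per cell cannot be told apart.

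All values are on the log2 scale as deposited, and every difference subtracts the mean of the wild type mice from that of the mdm mutant mice. Each group has n = 2 mice, and differences carry the standard error of the fit. Adjusted p-values come from limma with Benjamini-Hochberg adjustment over 16492 probe sets, and a gene is said to have risen or fallen only at an adjusted p under 0.05. An exact permutation test on 2 against 2 mice cannot give a 2-sided p below 0.333, so every call rests on limma's shared estimate of the spread. The Ttn probe set did not pass (12.66 and 12.68 in mdm mutant muscle, against 12.58 and 12.65 in wild type muscle, adjusted p = 0.564), and its position relative to the mutation is not given, so it does not check the labels. Of the 13 defining genes of skeletal muscle, 2 rose, 0 fell by limma (0 also at an unadjusted p under 0.05) and 11 did not pass. Over all probe sets 12.8% were called. The mean log2 level of these genes per array was 13.94 and 13.83 in mdm mutant and 13.79 and 13.85 in wild type muscle. On average they thus lay near the highest value of the table, 14.98, and a change in the share of muscle fibres was not tested. With either mdm mutant mouse removed 1 of them rose, and with either wild type mouse removed 0.

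TGF-beta ligands are secreted in a latent form held in the extracellular matrix, and once activated they bind pairs of type I and type II receptor kinases. These receptors phosphorylate Smad2 and Smad3, which join Smad4 and move to the nucleus to change transcription, while Smad7 blocks the receptors in a feedback loop. Myostatin and the activins, relatives of TGF-beta, bind Acvr2b and limit muscle growth through the same Smad2 and Smad3, and follistatin, the product of Fst, binds and neutralises both. In skeletal muscle TGF-beta is known for promoting fibrosis and restraining regeneration, and myostatin for restraining muscle mass.

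Promoter sequence was used for 4 of the measured members, and the promoters of the others were not examined. Of those used, 3 are shown because their genes behaved differently: Tgfb2 rose, Smad3 fell and Tgfb1 did not pass the test. Each run is the 150 bases before the transcript start in the RefSeq table of mouse build GRCm38.p6, 5′ to 3′ on the gene's strand. Capitals mark matches on either strand to TATAAA (the TATA box), CGTCA (the core of the cyclic AMP response element), CACGTG (an E-box) and CAGAC (a SMAD box).
Tgfb2, chr1:186705990-186706139, minus strand: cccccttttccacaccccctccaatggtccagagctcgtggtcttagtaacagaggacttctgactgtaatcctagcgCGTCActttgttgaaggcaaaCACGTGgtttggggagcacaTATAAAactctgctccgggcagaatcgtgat
Tgfb1, chr7:25686852-25687001, plus strand: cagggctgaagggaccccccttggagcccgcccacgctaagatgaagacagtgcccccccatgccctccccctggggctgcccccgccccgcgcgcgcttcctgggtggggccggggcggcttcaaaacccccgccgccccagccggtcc
Smad3, chr9:63757995-63758144, minus strand: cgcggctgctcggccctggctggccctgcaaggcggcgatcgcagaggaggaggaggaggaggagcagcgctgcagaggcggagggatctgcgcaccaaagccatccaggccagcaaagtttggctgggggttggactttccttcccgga
The Tgfb2 window held 1 match each to the TATA box, the response element core and the E-box, with first bases at −31, −72 and −51 relative to the start, and 51.3% G or C. The Tgfb1 and Smad3 windows held no match to any of these 4 motifs and were 76.0% and 67.3% G or C. Among 32851 windows of the same length in the table, 7.57% held the TATA box, 13.3% the response element core, 4.30% the E-box and 27.7% the SMAD box. The SMAD box was in none of the 3 windows shown. The annotated Tgfb2 gene extends further upstream than the start used here. These matches describe the letters of the windows and no binding was measured.

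Among the 9 measured members, Fst, Tgfb2 and Tgfb3 rose in mdm mutant muscle, Smad3 fell, and Tgfb1, Acvr2b, Smad2, Smad4 and Smad7 did not pass the test. The 4 calls are 44.4% of the measured members, where 12.8% of all probe sets tested were called, 6.46% as higher and 6.36% as lower. The median difference of the members was 0.12, beside −0.02 for all probe sets. The groups did not overlap for 7 members, a property shared by 60.9% of all probe sets. Without variance moderation none of the members passed, and 3 had an unadjusted p under 0.05. With 1 mouse removed at a time, Fst, Tgfb2 and Smad3 passed in all 4 settings. Tgfb3 passed when wild type 2 was removed, but its adjusted p was 0.101 with mdm mutant 1 removed, 0.0885 with mdm mutant 2 removed and 0.0909 with wild type 1 removed.

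**Figure D1:**
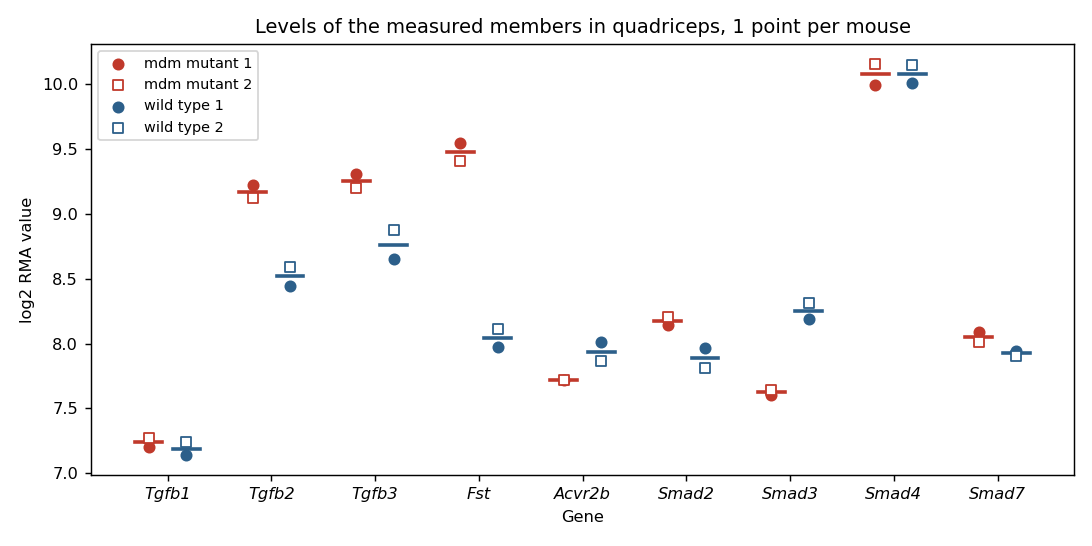
Log2 RMA value of each measured member in each mouse, with mdm mutant left of wild type for each gene, filled circles for replicate 1, open squares for replicate 2 and a bar at the mean of n = 2. Fst, Tgfb2 and Tgfb3 sit higher and Smad3 lower in mdm mutant muscle, and heights are not comparable between genes because each has its own probes.

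Of the 3 measured ligands, Tgfb2 and Tgfb3 rose and Tgfb1 did not pass. Tgfb1, the isoform best known from immune cells and platelets, had log2 values of 7.20 and 7.27 in mdm mutant muscle, against 7.14 and 7.24 in wild type muscle. These values overlapped between the groups. Its difference was 0.05 ± 0.06 with a 95% interval of −0.11 to 0.20 (adjusted p = 0.655). That leaves room for a rise in probe signal of up to about 0.20 on the log2 scale. Every Tgfb1 value lay below the median of the table, 7.28, so the bound is that of a dim probe set.

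Tgfb2, an isoform essential for development of the heart, palate and skeleton, had 9.22 and 9.12 in mdm mutant muscle, against 8.44 and 8.59 in wild type muscle. Both mdm mutant mice lay above both wild type mice. The rise of 0.65 ± 0.07 (95% interval 0.47 to 0.84, adjusted p = 0.0106) is 1.57-fold. Tgfb3, an isoform needed for palate fusion, had 9.30 and 9.20 in mdm mutant muscle, against 8.65 and 8.87 in wild type muscle, again without overlap. Its rise was 0.49 ± 0.09 or 1.40-fold (95% interval 0.26 to 0.72, adjusted p = 0.0299), and the wild type mice differed from each other more than the mdm mutant mice did.

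Because levels of different probe sets cannot be set against each other, the isoforms were compared through the difference of their log2 values within each array. Tgfb2 minus Tgfb1 was 2.01 and 1.85 in mdm mutant muscle, against 1.30 and 1.35 in wild type muscle, a shift of 0.60. Tgfb3 minus Tgfb1 was 2.10 and 1.92 in mdm mutant muscle, against 1.51 and 1.63 in wild type muscle, a shift of 0.44. Neither pair overlapped between the groups, which for single probe sets held for 60.9% of the table, and an unequal change of the isoforms is not shown by this. Tgfb2 minus Tgfb3 shifted by 0.16 only (−0.08 and −0.08 in mdm mutant muscle, −0.21 and −0.28 in wild type muscle). The exact permutation p was 0.333 for each of the 5 within-array differences computed, the smallest that 4 arrays allow, and stays 0.333 after Benjamini-Hochberg adjustment.

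Follistatin, the secreted trap for activins and myostatin, had the largest change among the members. Fst had 9.54 and 9.40 in mdm mutant muscle, against 7.98 and 8.11 in wild type muscle. The gap between the groups was far wider than the spread within either. The rise of 1.43 ± 0.08, or 2.70-fold (95% interval 1.24 to 1.62, adjusted p = 0.00288), ranked 46 among rises of the 16492 probe sets. It ranged from 1.36 to 1.50 with 1 mouse left out and had an adjusted p of 0.0185 or less each time.

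Acvr2b, the type II receptor for myostatin and activins, had 7.72 and 7.72 in mdm mutant muscle, against 8.01 and 7.86 in wild type muscle. Both mdm mutant values were lower, but the difference of −0.22 ± 0.07 (95% interval −0.38 to −0.05) did not pass (adjusted p = 0.0919).

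**Figure D2:**
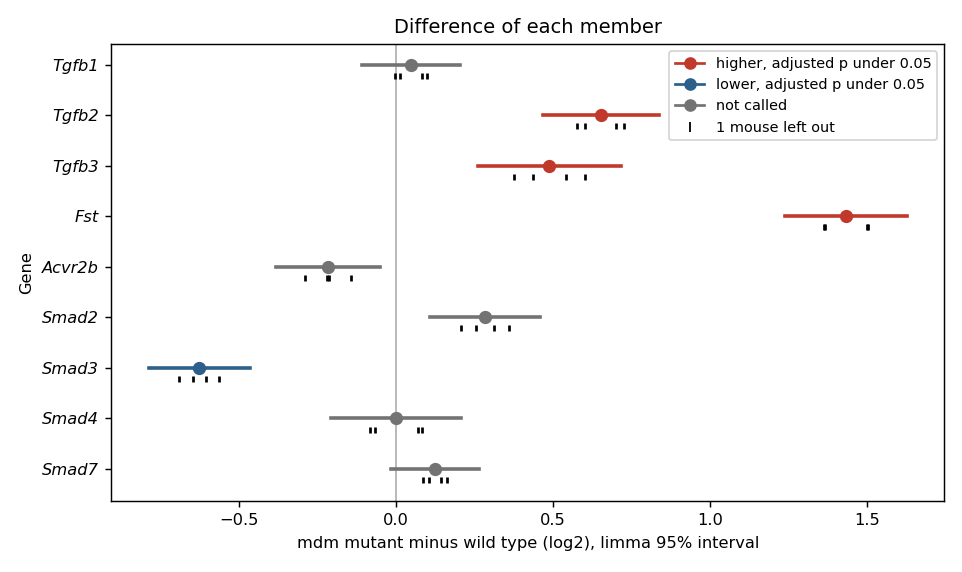
Log2 difference of each member between mdm mutant and wild type muscle as a point with its limma 95% interval (n = 2 per group), in red for rises, blue for falls and grey where the test was not passed; black ticks are the difference with 1 mouse left out. The ticks of Tgfb1 and Smad4 lie on both sides of zero. Those of every other member stay on 1 side, which is fixed where the groups do not overlap.

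Of the receptor-regulated SMADs, which carry the signal from the receptors, Smad3 fell and Smad2 did not pass. Smad3 had 7.60 and 7.64 in mdm mutant muscle, against 8.19 and 8.31 in wild type muscle. It was lower in both mdm mutant mice, by −0.63 ± 0.06, a 1.54-fold lower level (95% interval −0.79 to −0.47, adjusted p = 0.00923). Smad2, which shares its receptors with Smad3, had 8.14 and 8.20 in mdm mutant muscle, against 7.97 and 7.81 in wild type muscle. Its difference of 0.28 ± 0.07 (95% interval 0.11 to 0.46) lay on the other side of zero and did not pass (adjusted p = 0.0577). Smad2 passed with trend and robust estimation switched on in eBayes (adjusted p = 0.0468), and with the arrays centred on their hybridization controls (adjusted p = 0.0232).

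Within each array, Smad2 minus Smad3, a pair chosen after the values were seen, was 0.54 and 0.56 in mdm mutant muscle, against −0.22 and −0.50 in wild type muscle. The shift between the groups was 0.91 (exact permutation p = 0.333). Both mdm mutant mice had higher Smad2 and lower Smad3 than both wild type mice, so this pair could not overlap. Only such shifts can be read, since zero has no meaning between different probe sets.

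Smad4, the partner shared by TGF-beta and bone morphogenetic protein (BMP) signals, had 9.99 and 10.16 in mdm mutant muscle, against 10.004 and 10.14 in wild type muscle. The values interleaved, and the 95% interval of the difference ran from −0.21 to 0.21 (adjusted p = 0.997). Smad7, the inhibitory SMAD and itself a target of the pathway, had 8.09 and 8.01 in mdm mutant muscle, against 7.94 and 7.91 in wild type muscle. Its difference of 0.12 ± 0.06 (95% interval −0.02 to 0.26) did not pass (adjusted p = 0.205, or 0.0386 with the hybridization controls). Smad7 minus Smad3 was 0.48 and 0.37 in mdm mutant muscle, against −0.24 and −0.41 in wild type muscle, a shift of 0.75. Both mdm mutant mice had higher Smad7 and lower Smad3 than both wild type mice, so this pair could not overlap.

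**Figure D3:**
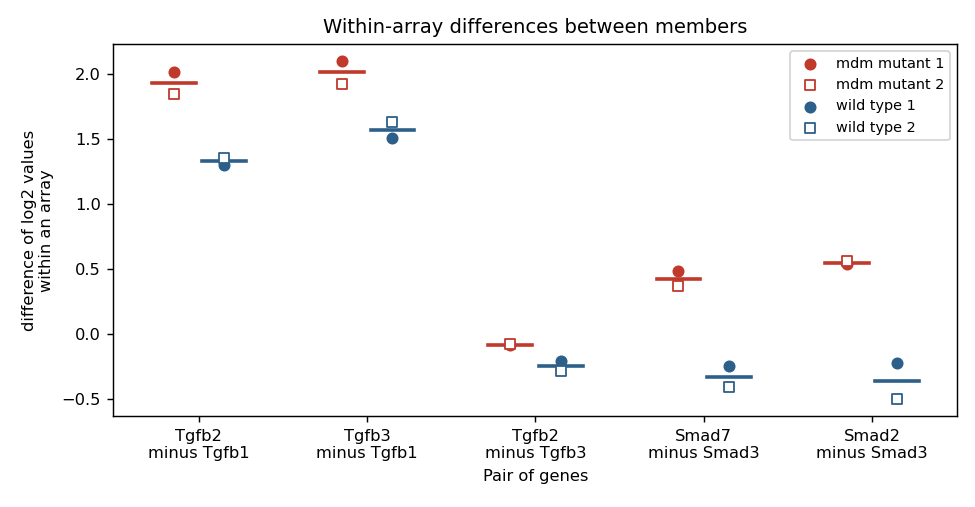
Difference of log2 values between 2 members within the same array, 1 point per mouse, mdm mutant left of wild type, with a bar at the mean of n = 2. In all 5 pairs the mdm mutant mice lie above the wild type mice, by a mean of 0.16 to 0.91, which for the pairs with Smad3 was fixed by the single genes. Only the shift between groups can be read, not the height or sign of a pair.

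Beyond the members, 145 other genes were measured, of 163 listed in 8 groups by role and called pathway genes below. The last group was chosen for muscle mass rather than for TGF-beta signalling. Of its 16 measured genes 5 are among the calls that follow, Igf2 and Fbxo30 included. A rise was called for 21 and a fall for 6, and 118 did not pass, so 18.6% were called beside 12.8% of all probe sets, and their median difference was 0.04. The number called was 13 with mdm mutant 1 removed, 10 with mdm mutant 2 removed, 10 with wild type 1 removed and 16 with wild type 2 removed. With the arrays centred on the hybridization controls 41 rose and 5 fell, a setting that lifted the median of all probe sets to 0.09, against −0.02 as deposited, and gave 2829 higher and 603 lower calls in place of 1066 and 1049. Of the 27 called genes, 7 passed with any 1 mouse removed, namely Bgn, Hjv, Wwp1, Cdkn1a, Id4, Igf2 and Fbxo30. Another 8 passed in none of these 4 settings, namely Pcsk6, Ltbp2, Chrdl2, Acvr1b, Ppp1r15a, Pmepa1, Tgif1 and Zeb2, and the other 12 passed in some. With the hybridization controls Acvr1b was the only one of the 27 not called (adjusted p = 0.0763). In the main fit the counts per group below stand beside the same 12.8% over all probe sets, 6.46% higher and 6.36% lower. A group count near that share is no result about the group. Counts with a mouse removed or with the hybridization controls have other totals and are not read against it. The share of all probe sets at an unadjusted p under 0.05 was not computed for the main fit. It includes at least the 3719 at an adjusted p under 0.1, so such counts are no result about a group either.

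Among 21 other ligands of the family, 0 rose by limma (2 at an unadjusted p under 0.05), 1 fell and 20 did not pass. The gene that fell was Inha, the inhibin alpha subunit, with 7.22 and 7.15 in mdm mutant muscle, against 7.88 and 7.62 in wild type muscle (−0.57 ± 0.10, adjusted p = 0.0249). It passed with only 1 of the 4 mice left out, wild type 2. Bmp4, Bmp8a and Bmp2, which encode bone morphogenetic proteins, differed by −0.24 ± 0.08, −0.14 ± 0.05 and 0.27 ± 0.10 without passing (adjusted p = 0.113, 0.120 and 0.129).

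Among 18 genes that store, activate or process the ligands, 3 rose, 1 fell and 14 did not pass. Ltbp1, whose product tethers latent TGF-beta to the matrix, had 8.27 and 8.42 in mdm mutant muscle, against 7.83 and 7.88 in wild type muscle (0.49 ± 0.07, adjusted p = 0.0165). Thbs1, encoding thrombospondin 1, a matricellular protein that can activate latent TGF-beta, had 8.96 and 8.91 in mdm mutant muscle, against 7.73 and 8.18 in wild type muscle (0.98 ± 0.15, adjusted p = 0.0194). Ltbp2, a relative of Ltbp1 whose product does not bind latent TGF-beta, rose by 0.29 ± 0.06 (adjusted p = 0.0321). It was dim, with 7.12 and 7.17 in mdm mutant muscle, against 6.81 and 6.89 in wild type muscle, below the table's median of 7.28. Without the dimmer 50% of probe sets 3 genes of this group were called. The gene that fell was Pcsk6, a proprotein convertase (−0.33 ± 0.05, adjusted p = 0.0195). This group had 0 calls with mdm mutant 2 removed and 1 with any other mouse removed.

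Among 19 other extracellular inhibitors, 2 rose, 0 fell by limma (0 also at an unadjusted p under 0.05) and 17 did not pass. Bgn, encoding biglycan, a matrix proteoglycan that binds TGF-beta, had 11.49 and 11.66 in mdm mutant muscle, against 10.74 and 10.85 in wild type muscle (0.78 ± 0.08, adjusted p = 0.00923). Chrdl2, a chordin-like BMP antagonist, rose by 0.36 ± 0.08 (adjusted p = 0.0445). It was dim, with 7.24 and 7.07 in mdm mutant muscle, against 6.74 and 6.85 in wild type muscle, below the table's median of 7.28. Without the dimmer 50% of probe sets 1 of these inhibitors was called. Decorin (Dcn), a proteoglycan that binds TGF-beta and myostatin, differed by 0.22 ± 0.07, and Igsf1 by 0.58 ± 0.19, without passing (adjusted p = 0.0858 and 0.114). This group had 2 calls without mdm mutant 2 and 1 with any other mouse left out.

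Among 17 other receptors and coreceptors, 0 rose by limma (4 at an unadjusted p under 0.05), 3 fell and 14 did not pass, although 4 rose and 2 fell with the hybridization controls. Hjv, encoding hemojuvelin, a BMP coreceptor abundant in muscle and liver, had 11.36 and 11.41 in mdm mutant muscle, against 12.04 and 11.96 in wild type muscle (−0.61 ± 0.06, adjusted p = 0.00732). Amhr2, the receptor of anti-Müllerian hormone, had 7.53 and 7.29 in mdm mutant muscle, against 8.38 and 7.98 in wild type muscle (−0.77 ± 0.15, adjusted p = 0.0339). Acvr1b, the type I receptor for activins and myostatin, had 7.55 and 7.57 in mdm mutant muscle, against 7.83 and 7.85 in wild type muscle (−0.28 ± 0.05, adjusted p = 0.0273). Tgfbr2, the type II receptor of TGF-beta, differed by 0.20 ± 0.05 and did not pass (adjusted p = 0.0682). This group had 2 calls without mdm mutant 1 or wild type 2 and 1 without mdm mutant 2 or wild type 1.

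Among 23 other SMADs and SMAD regulators, 3 rose, 1 fell and 19 did not pass, and 1 was called with any mouse left out. Wwp1, a ubiquitin ligase of the HECT type, had 9.27 and 9.32 in mdm mutant muscle, against 9.85 and 9.87 in wild type muscle (−0.56 ± 0.05, adjusted p = 0.00740). Tgif1, a transcriptional corepressor of SMADs, rose by 0.35 ± 0.06 (adjusted p = 0.0305). Pmepa1, a membrane protein induced by TGF-beta that restrains SMAD signalling, rose by 0.29 ± 0.05 (adjusted p = 0.0298), and Ppp1r15a, a phosphatase subunit that can act on the TGF-beta receptor, by 0.30 ± 0.05 (adjusted p = 0.0250).

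**Figure D4:**
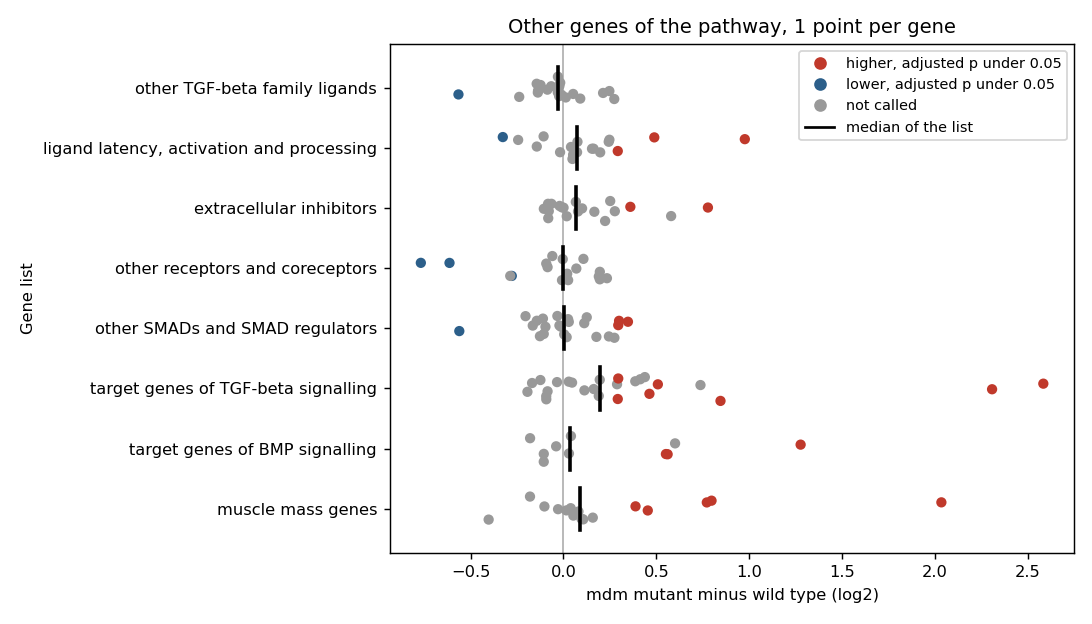
Difference of each measured gene in the 8 groups of pathway genes, of which the muscle mass genes reach beyond TGF-beta signalling (log2, positive where mdm mutant muscle is higher). Each gene is 1 point (vertical scatter only separates points), with a black line at the median of each group. Red points rose and blue points fell at an adjusted p under 0.05. The targets of TGF-beta signalling have the highest median of the 8 groups (0.20). They have no called fall, and neither do the extracellular inhibitors, the BMP targets and the muscle mass genes.

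Genes known as targets of TGF-beta signalling rose in part. Of 25 measured, 7 rose, 0 fell by limma (0 also at an unadjusted p under 0.05) and 18 did not pass, with a median difference of 0.20 beside −0.02 for all probe sets. Ccn2, connective tissue growth factor, had 11.76 and 12.13 in mdm mutant muscle, against 8.93 and 10.35 in wild type muscle (2.31 ± 0.45, adjusted p = 0.0342), and its wild type mice differed by more than 1 log2 unit. Postn, encoding the matrix protein periostin, had 12.11 and 11.59 in mdm mutant muscle, against 11.06 and 10.95 in wild type muscle (0.85 ± 0.17, adjusted p = 0.0365). Lox, the collagen cross-linking enzyme, had 9.28 and 9.30 in mdm mutant muscle, against 8.73 and 8.92 in wild type muscle (0.46 ± 0.08, adjusted p = 0.0230).

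The transcription factor Zeb2 rose by 0.51 ± 0.07 (adjusted p = 0.0175), and Pmepa1 and Ltbp2, named above, belong to these targets too. Cdkn1a, the cell cycle inhibitor p21, rose by 2.58 ± 0.12 (adjusted p = 0.00177) and is also a target of p53 and of muscle differentiation factors. With either mdm mutant mouse removed 2 of the targets rose, with wild type 1 removed 3 and with wild type 2 removed 4, while 14 rose with the hybridization controls.

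Among 10 targets of BMP signalling, 3 rose, 0 fell by limma (1 at an unadjusted p under 0.05) and 7 did not pass. Those that rose encode inhibitors of DNA binding, which hold back differentiation factors. Id2 had 8.76 and 9.26 in mdm mutant muscle, against 7.71 and 7.75 in wild type muscle (1.28 ± 0.16, adjusted p = 0.0130). Id4 rose by 0.55 ± 0.05 (adjusted p = 0.00732) and Id1 by 0.56 ± 0.12 (adjusted p = 0.0402), while Id3, at 0.60 ± 0.14, did not pass (adjusted p = 0.0544). The number that rose was 1 without wild type 1 and 2 or 3 with another mouse left out.

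Among 16 genes that set muscle mass, 5 rose, 0 fell by limma (1 at an unadjusted p under 0.05) and 11 did not pass. Fbxo30, a ubiquitin ligase of muscle loss that BMP signalling represses in mouse muscle, had 8.06 and 8.14 in mdm mutant muscle, against 7.33 and 7.28 in wild type muscle (0.80 ± 0.06, adjusted p = 0.00446). Igf2, an insulin-like growth factor, had 9.27 and 9.31 in mdm mutant muscle, against 8.52 and 8.52 in wild type muscle (0.77 ± 0.05, adjusted p = 0.00420). Hdac4, a histone deacetylase of the denervation response, rose by 0.39 ± 0.05 (adjusted p = 0.0158), and Eif4ebp1, a repressor of translation, by 0.45 ± 0.09 (adjusted p = 0.0370). Ddit4, an inhibitor of mTOR signalling, had 10.44 and 11.24 in mdm mutant muscle, against 8.19 and 9.43 in wild type muscle (2.04 ± 0.46, adjusted p = 0.0461), with a wide spread in both groups. With mdm mutant 1 removed 4 of these genes rose, with mdm mutant 2 or wild type 1 removed 2, and with wild type 2 removed 3.

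Markers of other cell types were counted beside these genes, and their part in the results was not tested. Counts of the main fit are read against the 12.8% of all probe sets called there. With the hybridization controls 2829 probe sets rose and 603 fell, in place of 1066 and 1049, and with a mouse removed fewer were called. Counts in those settings are therefore not read against the 12.8%. Nor are counts at an unadjusted p under 0.05, which at least the 3719 probe sets at an adjusted p under 0.1 pass. Of 15 macrophage markers 5 rose and 0 fell, with mean log2 levels over the list of 8.71 and 8.91 in mdm mutant and 8.25 and 8.17 in wild type muscle. With mdm mutant 1 removed 7 of them rose, with mdm mutant 2 or wild type 1 removed 3, with wild type 2 removed 2, and with the hybridization controls 12. Of 11 satellite cell and myoblast markers 7 rose and 0 fell, with means of 8.19 and 8.28 in mdm mutant and 7.43 and 7.38 in wild type muscle, and 6 rose with any mouse removed.

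Of 10 platelet and neutrophil markers 5 rose and 0 fell, with means of 7.83 and 8.29 in mdm mutant and 7.22 and 7.22 in wild type muscle. With mdm mutant 1 removed 8 of them rose, with mdm mutant 2 removed 4, with wild type 2 removed 3 and with wild type 1 removed 1. In these 3 lists limma gave no marker lower at an unadjusted p under 0.05. Of 11 endothelial markers 0 rose and 2 fell (0 and 5 at an unadjusted p under 0.05), with means of 8.42 and 8.08 in mdm mutant and 8.60 and 8.53 in wild type muscle. With mdm mutant 1 removed 7 of them fell, with wild type 2 removed 1, and with mdm mutant 2 or wild type 1 removed, or with the hybridization controls, 0.

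In the main fit the remaining lists had no larger share of calls than all probe sets. Of 16 fibroblast and tendon markers 2 rose and 0 fell (6 and 3 at an unadjusted p under 0.05), with means of 11.02 and 11.04 in mdm mutant and 10.70 and 10.91 in wild type muscle. With the hybridization controls 6 of them rose, with mdm mutant 1 removed 3, and with mdm mutant 2 or wild type 1 removed 1, while wild type 1 removed also gave 1 fall. Adipocyte markers had 1 fall and 0 rises among 8 genes (1 and 5 at an unadjusted p under 0.05), with means of 9.08 and 9.15 in mdm mutant and 9.14 and 8.43 in wild type muscle. Their median difference was 0.52, beside −0.02 for all probe sets, and 7 of the 8 differences lay above zero. With wild type 1 removed 4 rose and 1 fell, with either mdm mutant mouse removed 0 were called, and with the hybridization controls 2 rose and 1 fell. None of 4 Schwann cell markers passed or had an unadjusted p under 0.05, although 2 rose with the hybridization controls, and their means were 8.50 and 8.45 in mdm mutant and 8.47 and 8.45 in wild type muscle. The lowest value anywhere in the table was 5.42, so no marker was listed at 0.

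For each member that passed, the genes with the most similar profile were sought by the Euclidean distance between log2 values centred on each gene's mean over the 4 arrays. The nearest to Tgfb2 were Ier3 (distance 0.0313) and Slc35f5 (0.0511), and to Tgfb3 Egf (0.0267) and Nt5c2 (0.0433). The nearest to Fst were Zc2hc1a (0.160) and Sox11 (0.194), and to Smad3 Pank4 (0.0159) and Tmem37 (0.0174). With 4 arrays, closeness in such a profile says little more than that the change had a similar size.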

How the data were processed

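RNA of 4 quadriceps was labelled as biotinylated cRNA and read on Affymetrix arrays, per the labels' protocols. The deposited log2 values come from RMA (background correction, quantile normalization and probe set summary), which the submitters' processing notes name without a version. The labels name no array model. All 4 columns shared nearly the same sorted values (26 of 16553 ranks differed by over 1e-06), so a shift common to most genes would not show. Precision is limited by the number of arrays, and no detection calls came with the values.

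Groups follow the genotype labels. After removal of 61 array controls, 16492 probe sets were fitted in R 4.3.3 using limma 3.58.1 (its lmFit and eBayes functions, no covariates, 3.35 prior and 5.35 total degrees of freedom). Probe sets were named from GEO's platform annotation and symbols updated by Entrez number from RefSeq: 15270 had 1 symbol, 0 several and 1222 none listed. Of several probe sets of a gene the brightest was used. The fit was tested on simulated data. These had independent noise and fewer changed genes than were called here, so they lend the calls no support.

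The members, 8 groups of pathway genes and 8 marker lists were chosen with earlier results of these data known, and support nothing by their choice. Named were all members, in each pathway group every called gene or the 4 with the smallest p, and the 2 nearest profiles of each called member. Marker lists are given as counts, without their genes. No set test was run. Alternatives were median centring, repeated quantile normalization, centring on 18 hybridization controls, eBayes with trend and robust, no moderation, removal of the dimmer 50% of probe sets, averaging of probe sets, each mouse left out and thresholds of 0.1 and 0.01. Figures used matplotlib 3.10.9 in Python 3.11.15.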

Additional observations from a re-analysis of the deposited data

How the results depend on the processing

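No paired analysis was possible because the labels give the mice of the 2 groups no shared numbers. Of the member differences, Fst, Tgfb2, Tgfb3 and Smad3 kept their direction in every setting run, and so did Acvr2b, Smad2 and Smad7, which the main fit did not call. In these 7 members the groups do not overlap, so leaving 1 mouse out could not turn the sign. Without variance moderation, with 2 residual degrees of freedom per gene, the adjusted p-values of Fst, Tgfb2, Tgfb3 and Smad3 were 0.182, 0.201, 0.261 and 0.191. Their differences were 1.43, 0.65, 0.49 and −0.63 as before. This ordinary linear model called 0 members and 0 other pathway genes (3 and 31 at an unadjusted p under 0.05). Over all probe sets that setting called 1, with 3286 at an unadjusted p under 0.05. At a threshold of 0.01 the calls were 2 members, 7 other pathway genes and 304 probe sets, with Tgfb2 (0.65) and Tgfb3 (0.49) no longer called. At 0.1 they included Acvr2b (−0.22) and Smad2 (0.28), with 46 other pathway genes and 3719 probe sets. Centring on the hybridization controls called Smad2 (0.40, adjusted p = 0.0232) and Smad7 (0.24, adjusted p = 0.0386), 46 other pathway genes and 3432 probe sets. eBayes with trend and robust called Smad2 (0.28). Smad4 turned sign with median centring (−0.00018) and repeated quantile normalization (−0.0006), both next to zero.

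With 1 mouse left out, where the lone mouse of a group is assumed to vary like the others, the differences ran from 0.38 to 0.60 for Tgfb3, from −0.082 to 0.083 for Smad4 and from −0.0036 to 0.10 for Tgfb1, 3 to 4 members, 10 to 16 other pathway genes and 490 to 1182 probe sets were called. The removal of a mouse leaves 1 residual degree of freedom per gene. Tgfb1 was among the dimmer probe sets and had no value without them. The causes of these changes were not tested.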
